A study of Bos taurus with 16 samples.

Results

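EEF2K encodes eukaryotic elongation factor 2 kinase, a kinase that phosphorylates elongation factor eEF2 and thereby slows the movement of ribosomes along mRNA. It belongs to the small alpha-kinase family, it needs calcium-bound calmodulin, and it is switched on further by AMPK and held back by mTORC1 signalling through the S6 kinases. In neurons it lies downstream of glutamate receptors and is known for its link to the local translation of synaptic mRNAs such as that of the growth factor BDNF. The gene was 1 of 27607 genes in the deposited values, of which 16587 passed the filter on low values and were tested. It was chosen by its difference between the breeds, so its breed values, farm by farm and as a whole, and its covariation with other genes are given as a description with no test.

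RNA from the prefrontal cortex (PFC) of 16 non-castrated bulls was sequenced once per animal. The Lidia group, labelled aggressive, held 8 bulls of a breed selected for aggressive behaviour, 4 from the farm La Quinta and 4 from the farm Montealto, and the Wagyu group, labelled non-aggressive, held 8 bulls of a meat breed from the farm Nuestro Buey. The bulls were 3 years old apart from Montealto bull 4, which was 4. Lidia tissue was taken at the bullring after the bulls had been incited to aggressive behaviour and Wagyu tissue in slaughterhouse cutting rooms, so that breed, farm, diet, handling and place of sampling cannot be told apart.

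In the annotation of ARS-UCD 1.2 used for the files, EEF2K (ENSBTAG00000017662) lies on chromosome 25 from 19903413 to 19955828 on the forward strand. It has 1 annotated transcript of 17 exons with a summed length of 4213 bases, and the last exon alone holds 2075 of them, or 49.3%. The value of the gene and that of its transcript are therefore the same, and no shift between isoforms could be seen. A gene or transcript was called between the breeds where limma's moderated test gave a Benjamini-Hochberg adjusted p of 0.05 or less and the log2 difference was 0.1 or more in either direction. Of 23440 transcripts tested, 1.57% were called, against 4.98% of the genes.

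The FPKM is the number of fragments per kilobase of exon per M mapped fragments, M standing for 1000000. As deposited it is divided by the mapped fragments of each library but carries no further scaling between animals. The ratio of coverage to FPKM gives the number of mapped fragments by which the FPKM was divided. Counting 200 bases to a fragment, this was 7.67 M to 37.0 M fragments per animal. Wagyu replicate 4, at 7.67 M, and La Quinta bull 4, at 13.7 M, had the lowest numbers. Their median-of-ratios factors of 2.19 and 1.77 showed FPKM inflated over the 14 other animals, whose factors lay between 0.612 and 1.12. That these 2 libraries were shallow is not shown. Their estimated fragments on EEF2K, 831 and 435, lay within the 690 to 1772 of the Wagyu and the 144 to 682 of the Lidia group. Values divided by these factors are called scaled FPKM below, and differences are on the log2(scaled FPKM + 0.1) scale unless a sentence says otherwise, a scale that understates the change of low genes.

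EEF2K was lower in every Lidia bull than in every Wagyu bull on the scaled values. In the Wagyu bulls, replicates 1 to 8 in turn, EEF2K had 9.70, 10.9, 9.21, 11.7, 8.93, 9.37, 7.04 and 10.7 scaled FPKM. In La Quinta bulls 1 to 4 it had 2.91, 4.49, 4.10 and 4.27 scaled FPKM. In Montealto bulls 1 to 4 it had 4.36, 2.79, 3.93 and 4.01 scaled FPKM. The highest Lidia value, of La Quinta bull 2, was well under the lowest Wagyu value, of Wagyu replicate 7, and the groups did not overlap. In bulk tissue, fewer cells that express the gene and less of its RNA per cell cannot be told apart.

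The mean was 3.86 ± 0.648 scaled FPKM (SD, n = 8) in Lidia and 9.69 ± 1.44 scaled FPKM (SD, n = 8) in Wagyu bulls. The Wagyu mean was thus 2.51 times the Lidia mean, and the log2 difference, Lidia minus Wagyu, was -1.31, where the median over all tested genes was -0.015. The difference was -1.28 with the La Quinta bulls alone and -1.34 with the Montealto bulls alone. Leaving out each animal in turn kept it between -1.37 and -1.25, and without Wagyu replicate 4 and La Quinta bull 4 together it was -1.29. All 8 Lidia values lay below all 8 Wagyu values in 0.32% of the genes tested, and 1.65% were called lower and 3.33% higher in the Lidia group. Of the 53 genes without overlap in this direction, EEF2K had the widest gap between the lowest Wagyu and the highest Lidia animal, 0.64 on the log2 scale, and its log2 difference ranked number 53 from the lowest among all tested genes. These places describe a gene that was selected on the same contrast.

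As deposited, EEF2K had 6.60, 11.4, 8.95, 25.7, 7.81, 10.5, 5.16 and 11.0 FPKM in Wagyu replicates 1 to 8. It had 3.06, 4.41, 3.47 and 7.55 FPKM in La Quinta bulls 1 to 4, and 4.66, 1.71, 3.63 and 3.81 FPKM in Montealto bulls 1 to 4. On these unscaled values 7 of 8 Lidia bulls were under the lowest Wagyu bull. The exception was La Quinta bull 4, an animal with an inflated factor, whose value exceeded those of 2 Wagyu bulls. The log2 difference of the deposited values was -1.35, and the coefficient of variation among the Wagyu bulls fell from 58.6% as deposited to 14.8% after scaling.

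The deposited values carry lower and upper bounds from Cufflinks for each animal, which cover the error of estimation in that library and not the spread between animals. Their half-width was 3.46 to 5.59% of the value in the Wagyu group and 5.60 to 12.3% in the Lidia group. The widest belonged to Montealto bull 2, where an estimated 144 fragments lay on EEF2K, against 1772 in Wagyu replicate 2. After scaling, the highest upper bound among the Lidia bulls was 4.75 and the lowest lower bound among the Wagyu bulls 6.64 scaled FPKM, so that the bounds of the groups did not overlap either.

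The place of EEF2K within each animal, which no scaling factor can change, was also read. It rests on the values that chose the gene, so its order of the groups is not independent evidence. Within each animal, EEF2K was ranked by its FPKM among the 16587 tested genes. Between 72.8 and 82.8% of these genes lay below EEF2K in the Wagyu bulls, with a median of 78.7%, and between 52.3 and 62.5% in the Lidia bulls, with a median of 60.0%. Wagyu replicate 4 and La Quinta bull 4, which stood apart in the deposited FPKM, had 82.8%, the highest of the Wagyu bulls, and 61.5%, under the highest of the Lidia bulls, respectively.

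**Figure D1:**
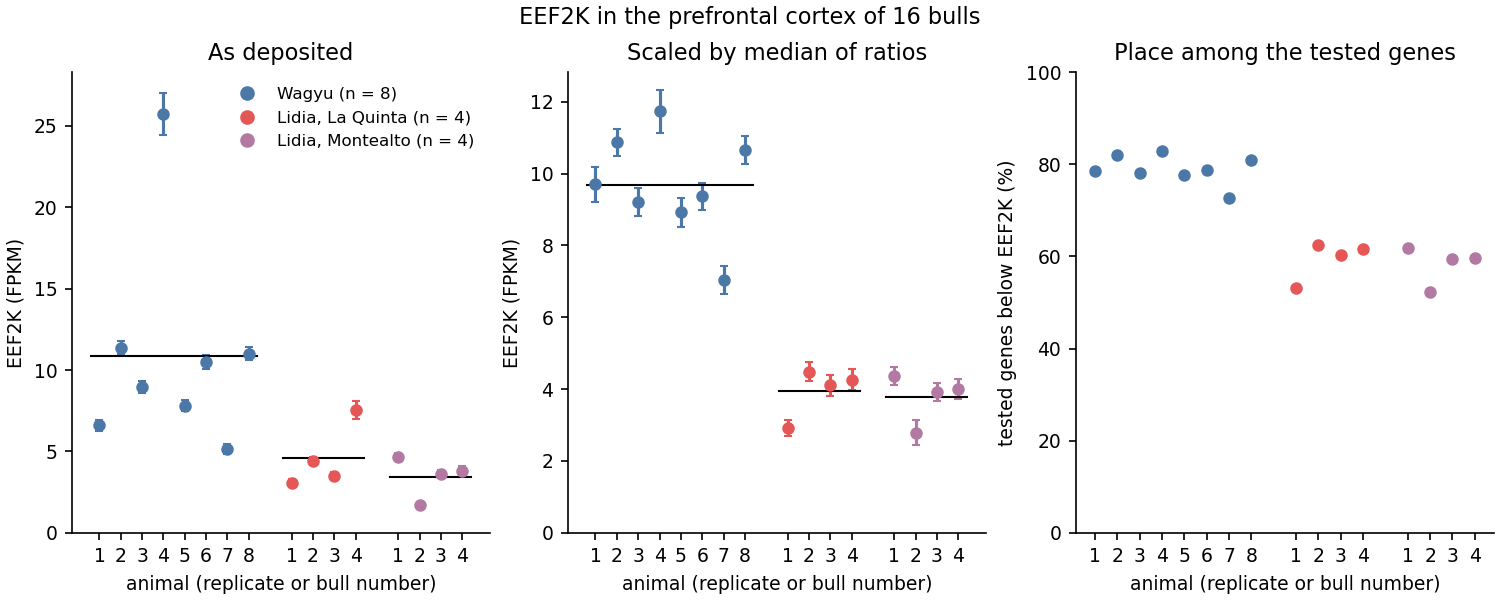
EEF2K in 16 bulls (horizontal axis, numbered within group). The left and middle panels show FPKM as deposited and after median-of-ratios scaling, with the Cufflinks bounds as error bars and group means as lines, and the right panel the percentage of tested genes with a lower FPKM in the same animal. As deposited, Wagyu replicate 4 stands at 25.7 FPKM, and after scaling all Lidia bulls lie at or under 4.49 and all Wagyu bulls at or above 7.04.

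The 2 Lidia farms were compared by a test, since the gene was chosen by its difference from Wagyu. A gene low in both farms was chosen, which may favour farms of like level. The test is therefore not fully independent of the choice. EEF2K had 3.94 ± 0.705 scaled FPKM (SD, n = 4) in the La Quinta bulls and 3.77 ± 0.681 scaled FPKM (SD, n = 4) in the Montealto bulls. The log2 difference, La Quinta minus Montealto, was 0.063 (95% interval -0.56 to 0.66, by inversion of the exact permutation test), within the spread of the bulls (p = 0.543 by an exact two-sided permutation test over 70 splits, where the smallest p possible is 0.0286). On FPKM as deposited it was 0.41 (exact permutation p = 0.486). Its sign turned when La Quinta bull 2 was left out, to -0.0043, or Montealto bull 2, to -0.072. The order of the levels was thus Wagyu, La Quinta and Montealto, of which the farms La Quinta and Montealto did not differ beyond their spread. One bull of each farm, La Quinta bull 1 and Montealto bull 2, had the lowest values of the study.

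Within a breed EEF2K varied about as much as other genes of its level. The within-breed standard deviation was 0.24 on the log2 scale, 0.26 in the Lidia and 0.22 in the Wagyu group, where the median of all tested genes was 0.31, and 33.2% of genes varied less. Among the 1000 genes nearest to EEF2K in mean level the median was 0.25.

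Technical values were read beside EEF2K. The mitochondrial share of all FPKM was 22.2 to 38.4% among Lidia and 17.8 to 39.3% among Wagyu bulls. The means differed by 5.13 percentage points, which did not exceed the spread (p = 0.115 by an exact two-sided permutation test). Without Wagyu replicate 4 and La Quinta bull 4 the difference was 7.11 percentage points (p = 0.0111 by the same exact permutation test). The scaling factors differed by -0.0561 between the Lidia and Wagyu means (p = 0.761 by the same exact permutation test). Within the Lidia group EEF2K and the mitochondrial share had r = -0.34 over 8 bulls, and r = 0.45 within the Wagyu group. Without the 2 bulls farthest from the median share of their breed these turned to 0.56 and 0.22. Scaled EEF2K and the scaling factor had r = 0.43 in the Lidia and r = 0.65 in the Wagyu group over 8 bulls each, and r = -0.27 and 0.84 without the 2 bulls of each breed farthest from the median factor. The part of the mitochondrial share and of the scaling factor in the EEF2K difference was not tested.

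Genes of the pathway could be followed only where a symbol was known. The deposited values hold identifiers without symbols, and the 997 symbols used come from the study's own list of differing genes, so a named gene was chosen on the same animals and its direction is not independent evidence. Of 92 symbols of the pathway besides EEF2K, 4 could be placed. Of these 4, 3 were called, 2 lower and 1 higher in the Lidia group. Over all genes 4.98% were called, but these 4 came from a list of differing genes, so the shares cannot be compared. None of 17 genes of the elongation machinery, with the substrate EEF2 among them, and none of 14 genes of initiation control could be placed. The same held for the other alpha-kinases. The calmodulins, AMPK subunits, mTOR and S6 kinases are not analysed here for the same reason, and 1 of 39 genes listed as inputs to the kinase, 1 of 10 receptors and channels and 2 of 8 dendritic mRNAs have values.

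BDNF, the neurotrophin whose translation is linked to eEF2K, fell in the Lidia group. BDNF (ENSBTAG00000008134, chromosome 15 from 58385523 to 58422131) ran from 0.940 to 1.79 with a median of 1.13 scaled FPKM in the Lidia bulls, and from 1.77 to 4.20 with a median of 3.37 in the Wagyu bulls. In 7 of 8 Lidia bulls BDNF was under its lowest Wagyu value, and Montealto bull 4 overlapped with Wagyu replicate 2. The log2 difference was -1.37 (standard error 0.16, limma adjusted p = 8.6e-04). Within a breed, BDNF and EEF2K had r = 0.093 in the Lidia and r = -0.23 in the Wagyu group over 8 animals each.

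HOMER1, a scaffold protein of the postsynaptic density, also fell. HOMER1 (ENSBTAG00000025853, chromosome 10 from 10413731 to 10546778) ran from 6.88 to 15.2 with a median of 12.5 scaled FPKM in the Lidia bulls, and from 12.01 to 30.9 with a median of 22.3 in the Wagyu bulls. The groups overlapped, and 4 Lidia bulls were under the lowest Wagyu value. The log2 difference was -0.81 (standard error 0.21, limma adjusted p = 0.0374). The call of HOMER1 was lost with either farm alone and by the exact rank-sum test (adjusted p = 0.0835). It was also lost when Wagyu replicate 4, 5, 6, 7 or 8, La Quinta bull 2, 3 or 4, or Montealto bull 1 or 3 was left out (limma adjusted p from 0.0528 to 0.0826). The same held without Wagyu replicate 4 and La Quinta bull 4 together (limma adjusted p = 0.0961) and on FPKM as deposited (limma adjusted p = 0.618). Within breed, r with EEF2K was 0.77 in the Lidia and 0.046 in the Wagyu group, and the rank correlations were 0.40 and -0.24. Without the 2 bulls of each breed farthest from its EEF2K median, r over 12 animals was -0.34 for HOMER1 and -0.42 for BDNF.

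GRIN2A, a subunit of the NMDA type of glutamate receptor, had 0.983 to 2.85 scaled FPKM in the Lidia bulls with a median of 2.23, and 1.85 to 4.74 with a median of 2.91 in the Wagyu bulls. GRIN2A (ENSBTAG00000007887, also on chromosome 25, from 8496962 to 8687352) did not pass the test, with a log2 difference of -0.50 (standard error 0.22, limma adjusted p = 0.21). Only 2 Lidia bulls were under the lowest Wagyu value, and the remaining 6 overlapped with the Wagyu group.

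MAPK13, a stress-activated p38-type kinase that phosphorylates eEF2K, rose in the Lidia group. MAPK13 (ENSBTAG00000010007, chromosome 23 from 10058481 to 10067089) ran from 1.97 to 4.36 with a median of 2.93 scaled FPKM in the Lidia bulls, and from 0.921 to 2.53 with a median of 1.37 in the Wagyu bulls. In 6 of 8 Lidia bulls MAPK13 was over its highest Wagyu value, and the other two, both from Montealto, were under the high value of Wagyu replicate 3. The log2 difference was 1.06 (standard error 0.20, limma adjusted p = 0.00894), and with the Montealto bulls alone it was 0.78 and not called (limma adjusted p = 0.124). On FPKM as deposited, limma called 0 of all genes, with 1022 at an unadjusted p under 0.05.

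**Figure D2:**
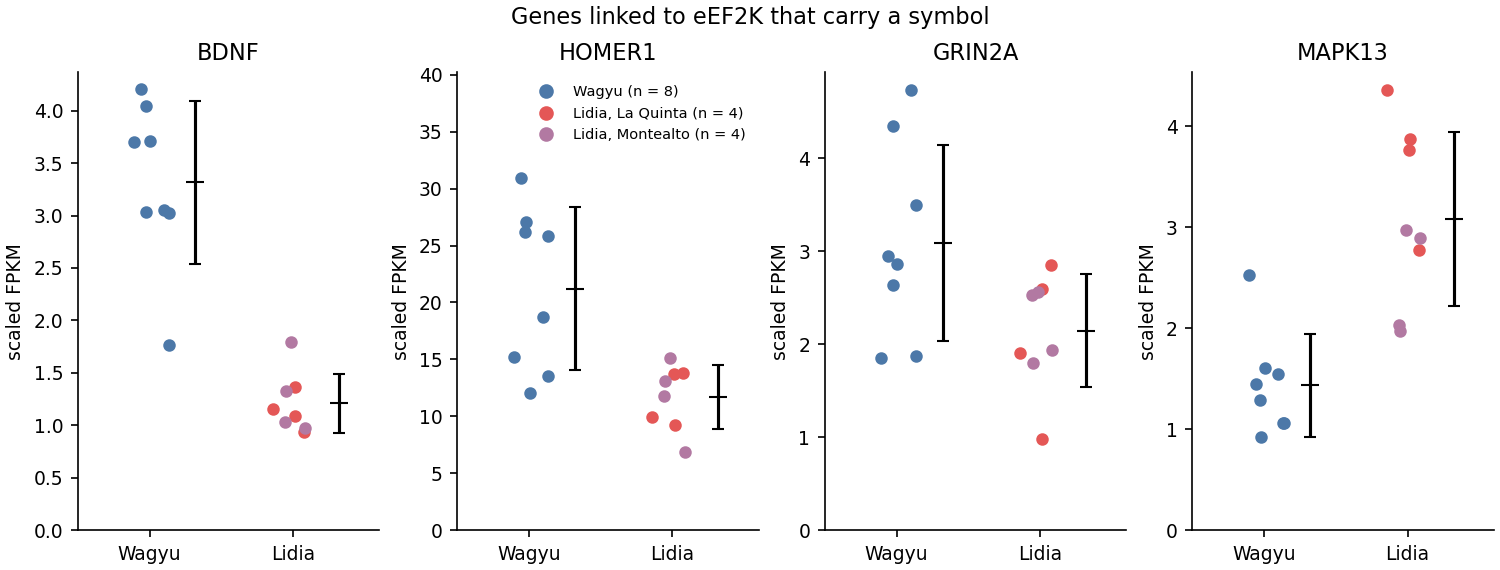
Scaled FPKM (vertical axis) of the 4 pathway genes that carry a symbol, with 1 point per bull by breed and farm and the mean ± SD of each breed beside the points. BDNF and HOMER1 were lower and MAPK13 higher in the Lidia group, and GRIN2A did not pass the test.

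The genes around EEF2K were examined for a difference over the whole stretch of chromosome 25. Of the 5 genes on either side, 7 of 10 passed the filter on low values. Of these 7, 0 were called by limma, with 1 at an unadjusted p under 0.05, where 4.98% of all genes were called. ENSBTAG00000013052, ENSBTAG00000018050 and ENSBTAG00000018869 were low, with breed means of 0.12 to 0.34 scaled FPKM. At a mean FPKM of at least 1, 4 neighbours were tested and 0 called. The gene next to EEF2K, ENSBTAG00000018044, starts 13.6 kb after its end, at 19969392, and ends at 20002099. It had 1.34 ± 0.416 scaled FPKM (SD, n = 8) in Lidia and 1.63 ± 0.303 scaled FPKM (SD, n = 8) in Wagyu bulls, with a log2 difference of -0.33 (standard error 0.22, limma adjusted p = 0.42). On the other side, the nearest gene, ENSBTAG00000013052, ends 38.4 kb before EEF2K and differed by -0.19 (standard error 0.17, limma adjusted p = 0.566).

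The gene with the smallest p was ENSBTAG00000018868, 143 kb after EEF2K from 20098778 to 20145476. It had 8.46 ± 0.690 scaled FPKM (SD, n = 8) in Lidia and 9.90 ± 0.751 scaled FPKM (SD, n = 8) in Wagyu bulls, a log2 difference of -0.22 (standard error 0.067, limma adjusted p = 0.062). It was called by the exact rank-sum test (adjusted p = 0.0474), with array weights (adjusted p = 0.00806) and without La Quinta bull 1 (limma adjusted p = 0.0409). ENSBTAG00000018869 overlaps it on the reverse strand. Whether reads were assigned by strand is not given in the sources used here, so reads of this pair may not be separable.

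All 7 tested neighbours had lower means in the Lidia group, with log2 differences from -0.53 to -0.11 and a median of -0.22, beside -0.015 over all tested genes and -1.31 for EEF2K. The value of -0.53 is that of ENSBTAG00000018869, with means of 0.12 scaled FPKM in Lidia and 0.20 in Wagyu bulls. For ENSBTAG00000021652 the sign rested on La Quinta bull 4, where this gene is listed at 0, and without that bull the difference was 0.33. With the Montealto bulls alone, it was 0.29 for that gene and 0.035 for ENSBTAG00000018050. The 3 genes that did not pass the filter, ENSBTAG00000016244, ENSBTAG00000042455 and ENSBTAG00000032373, stayed at or below 0.114 scaled FPKM in every animal. In RefSeq's annotation of the later assembly ARS-UCD2.0, the protein-coding genes on either side of EEF2K are SDR42E2 and POLR3E, which were not matched to the identifiers above.

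**Figure D3:**
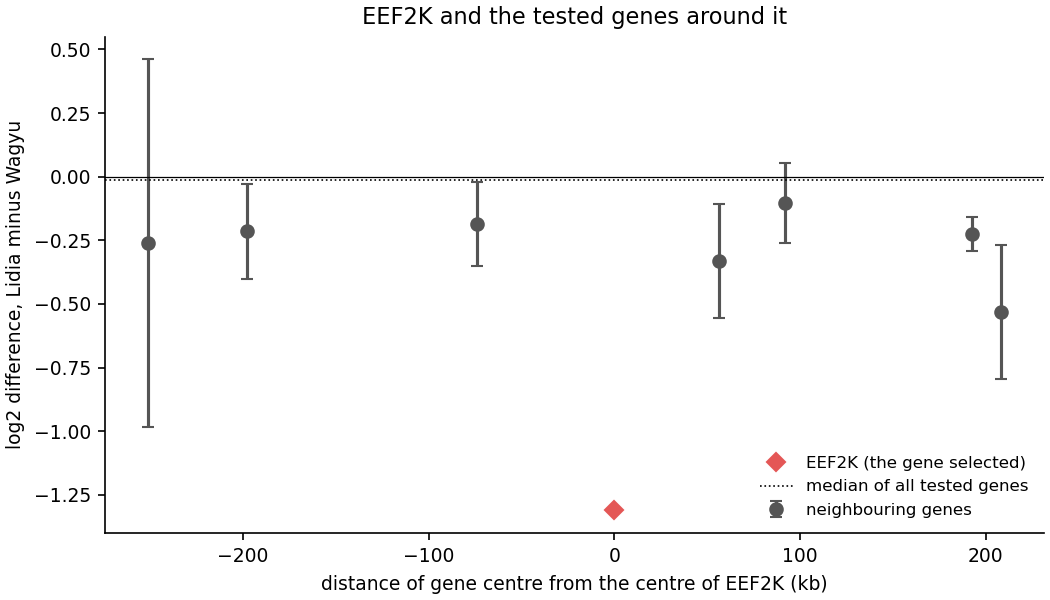
The log2 difference, Lidia minus Wagyu (vertical axis), of EEF2K and the 7 tested neighbours against the distance of gene centres in kb, with standard errors for the neighbours. EEF2K stands at -1.31, and the neighbours lie between -0.53 and -0.11.

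Covariation within breed was described over the deviations of each animal from its breed mean, for 15429 other genes above 0 in all 16 animals. Extreme values were common. In the Lidia group, 30.8% of all genes had an absolute r of at least 0.7 with EEF2K over 8 bulls, against 4.60% in the Wagyu group and 4.28% over the 16 deviations together. The r of a gene in one breed and in the other had the same sign for 67.4% of genes. The points of each correlation share their library, depth and scaling factor.

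Of genes with a symbol, MASP1 (ENSBTAG00000012467), a serine protease of the lectin pathway of complement, had the highest r with EEF2K, 0.85 over the 16 deviations, with 0.84 in the Lidia and 0.86 in the Wagyu group. PAQR8, a membrane progestin receptor, followed with 0.80. GREM1, an antagonist of bone morphogenetic proteins, had 0.78, APCDD1, an inhibitor of Wnt signalling, 0.77, and ARHGAP28 0.77. Between the breeds these genes did not share a direction: MASP1 rose by 0.61 (limma adjusted p = 0.0224) and APCDD1 by 0.54 (limma adjusted p = 0.0332) in the Lidia group, while PAQR8 fell by 0.54 (limma adjusted p = 0.0254). GREM1 and ARHGAP28 did not pass the test, with log2 differences of 0.44 and 0.89 (limma adjusted p = 0.437 and 0.0724). The call of PAQR8 was lost without Wagyu replicate 8 (limma adjusted p = 0.0554), and that of APCDD1 without Wagyu replicate 1, 4, 5, 6, 7 or 8, La Quinta bull 2, 3 or 4 or Montealto bull 1 (limma adjusted p up to 0.0736).

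The lowest r among genes with a symbol belonged to CDKN1B, an inhibitor of cyclin-dependent kinases, with -0.77. SPHK1, a kinase that makes sphingosine-1-phosphate, had -0.74, ACKR1, an atypical chemokine receptor, -0.73, SYNPR, a protein of synaptic vesicles, -0.70, and DIPK1B -0.69. Between the breeds, CDKN1B rose by 0.42 (limma adjusted p = 0.00591) and SPHK1 by 1.05 (limma adjusted p = 0.00591) in the Lidia group, and SYNPR fell by 0.48 (limma adjusted p = 0.012). ACKR1 and DIPK1B did not pass the test, with log2 differences of -0.64 and 0.37 (limma adjusted p = 0.103 and 0.228).

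Over all genes, the highest r belonged to ENSBTAG00000050785 with 0.86, followed by MASP1 and by ENSBTAG00000016730, ENSBTAG00000021883 and ENSBTAG00000016549, each with 0.84. The lowest were those of ENSBTAG00000050598 with -0.89, ENSBTAG00000004891 with -0.86, ENSBTAG00000009213 and ENSBTAG00000007456, each with -0.83, and ENSBTAG00000031106 with -0.82. Of the neighbours on chromosome 25, those above 0 in all 16 animals had r from -0.11 to 0.53, the highest for ENSBTAG00000018044.

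These values rested in part on the animals at the ends of the EEF2K range. When Wagyu replicates 4 and 7, La Quinta bull 1 and Montealto bull 2 were left out, the 2 of each breed farthest from its median, r over the remaining 12 fell to 0.47 for MASP1 and 0.40 for APCDD1, and it was 0.75 for PAQR8 and 0.57 for GREM1. For CDKN1B it became 0.096, for SPHK1 -0.27 and for SYNPR -0.28. Of the genes without a symbol, those with the highest r had 0.45 to 0.64 over these 12, and those with the lowest -0.58 to -0.20, the weakest being ENSBTAG00000004891 with -0.20 and ENSBTAG00000031106 with -0.29.

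**Figure D4:**
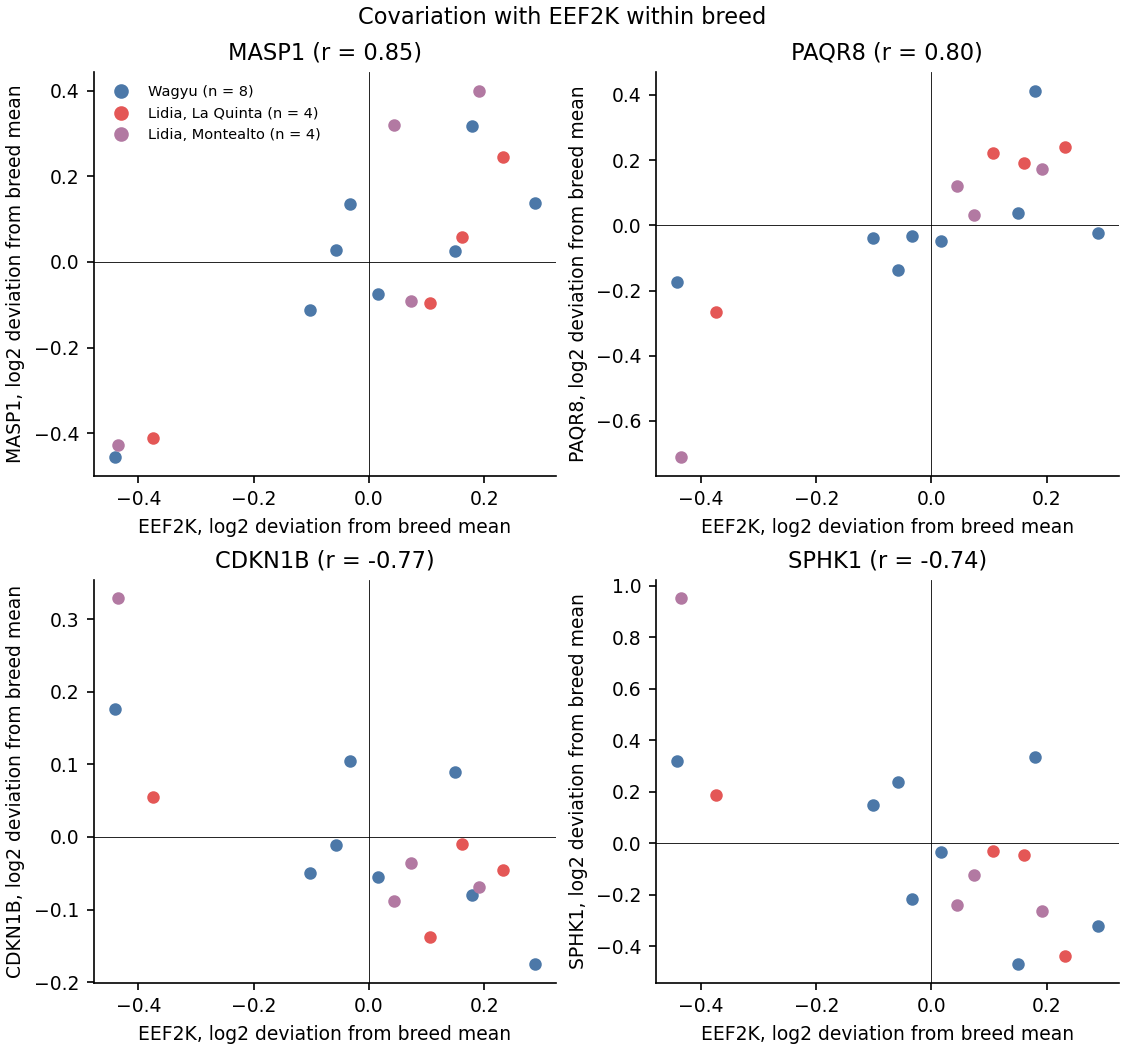
Deviations from the breed mean on the log2 scale of EEF2K (horizontal axis) and of 4 genes with a high or low r (vertical axes), with 1 point per bull. La Quinta bull 1, Montealto bull 2 and Wagyu replicate 7 form the low end of EEF2K in each panel.

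The median r, but not the r of each gene, moved with the transcript length of the other gene. The median r over the 16 deviations was -0.21 for 2268 genes with transcripts under 1000 bases, -0.089 for 4882 genes from 1000 to 2000 bases and 0.094 for 3955 genes from 2000 to 3000 bases. It was 0.21 for 3227 genes from 3000 to 5000 bases and 0.26 for 1097 genes of 5000 bases or more. The quartiles spanned 0 in every class, from -0.52 to 0.26 in the shortest and from -0.013 to 0.47 in the longest. In the Lidia group alone the median ran from -0.29 to 0.39 over these classes, and in the Wagyu group it lay between -0.14 and 0.14. Across 15419 nuclear genes, which are not independent replicates, Pearson's r between log length and the correlation with EEF2K was 0.23. The transcript of EEF2K, with 4213 bases, falls into the class from 3000 to 5000. RNA quality per animal was not analysed here, and its part in this relation was not tested.

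**Figure D5:**
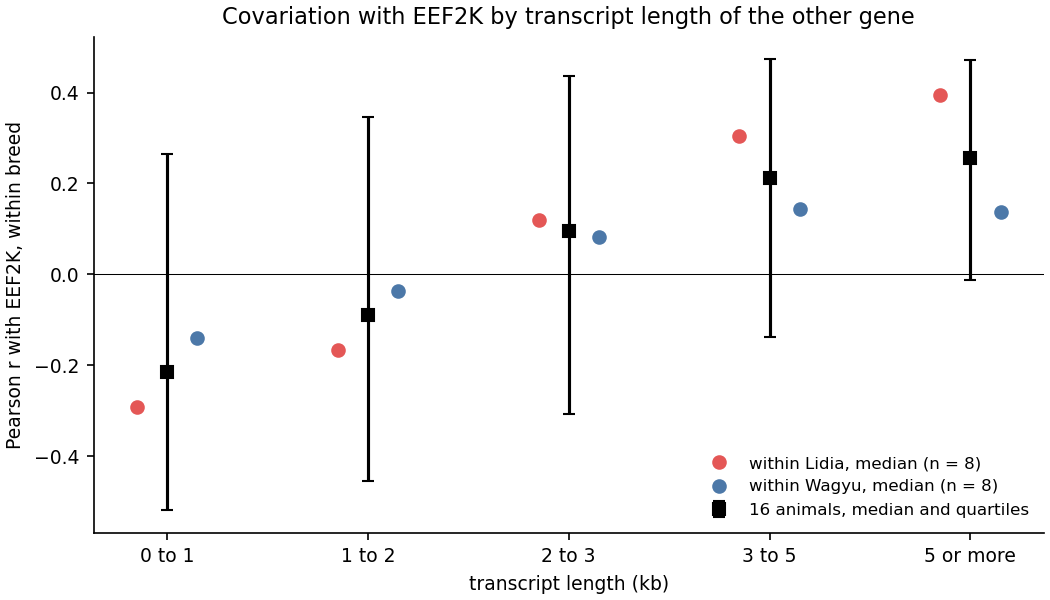
Pearson r of other genes with EEF2K within breed (vertical axis) by transcript length of the other gene in kb (horizontal axis). Squares with bars give the median and quartiles over the deviations of 16 animals, and circles the medians within the Lidia and Wagyu groups. The median rises from -0.21 in the shortest class to 0.26 in the longest.

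Markers of the cell types that PFC tissue can hold were read beside EEF2K as far as they carry a symbol, again from the study's own list. The excitatory neuron markers SLC17A7, NEUROD2 and NEUROD6 (3 of 6 listed) were above 0 in all 16 bulls, with sums of 108 to 165 scaled FPKM in the Lidia and 122 to 206 in the Wagyu group, and 0 of the 3 were called, where 1.65% of all genes were called lower. The inhibitory markers GAD2 and VIP (2 of 6) summed to 4.95 to 12.1 and 6.17 to 22.9, respectively, with 0 called by limma. All 5 of these neuronal markers had lower means in the Lidia group, as EEF2K did, with log2 differences from -0.81 for VIP to -0.39 for SLC17A7. Of the 5, 4 had an unadjusted p under 0.05, and the limma adjusted p ran from 0.0631 for VIP to 0.332 for GAD2. Over all 16587 tested genes, 3494 had an unadjusted limma p under 0.05. The markers were named from a list of genes differing between these bulls. Their count and shared direction are therefore not independent evidence. None of 5 markers shared by all neurons carries a symbol. Within breed, the sum of the excitatory markers and EEF2K had r = -0.038 over the 16 deviations, and that of the inhibitory markers r = 0.15.

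Markers of other cells that were called lay higher in the Lidia group, where EEF2K was lower. Of the meningeal fibroblast markers, 7 of 8 carry a symbol and 4 of the 7 were called higher in the Lidia group. These were COL1A1, COL1A2, DCN and SLC6A13. Over all genes 3.33% were called higher, but markers with a symbol come from the study's own list, so the shares cannot be compared. The sum of the 7 ran from 14.2 to 89.8 scaled FPKM in the Lidia and from 6.12 to 26.7 in the Wagyu bulls. Within the Lidia group this sum and EEF2K had r = 0.81 over 8 bulls, and in the Wagyu group r = 0.090. An absolute r of at least 0.7 was found for 30.8% of all genes in the Lidia group. Over the 12 animals nearer to their breed median of EEF2K, r of the 7 members ran from 0.30 to 0.53. Of the astrocyte markers GFAP, AQP4 and GJA1 (3 of 6), AQP4 and GJA1 were called higher in the Lidia group. The sum of the 3 ran from 274 to 408 scaled FPKM in the Lidia and from 151 to 433 in the Wagyu bulls. With EEF2K this sum had r = -0.024 in the Lidia and r = 0.56 in the Wagyu group. For AQP4 these were 0.37 and 0.89. Over the same 12 animals as above, r of the 3 markers ran from 0.42 to 0.59. Of the microglia markers CX3CR1 and AIF1 (2 of 6), CX3CR1 was called higher, with sums of 13.2 to 25.9 and 6.33 to 14.6.

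Of the endothelial and mural markers CLDN5, VWF and PDGFRB (3 of 6), PDGFRB was called higher, with sums of 25.4 to 103 in the Lidia and 13.1 to 29.6 scaled FPKM in the Wagyu group, and their sum is mostly CLDN5, at 98.4 scaled FPKM in 1 Lidia bull where the Lidia median was 25.9. With EEF2K the sum had r = -0.77 in the Lidia and r = -0.14 in the Wagyu group. The members did not share this sign, since in the Lidia group r was -0.79 for CLDN5 and -0.58 for VWF, but 0.78 for PDGFRB. Over the 12 animals nearer to their breed median of EEF2K, CLDN5 had r = 0.13. CNP, the 1 of 6 oligodendrocyte markers with a symbol, had 42.9 to 150 and 30.8 to 112 scaled FPKM and was not called, and HBB, the 1 of 4 blood markers, had 0.336 to 4.97 and 0 to 1.86 and was not called. HBB was the single marker listed at 0 in any bull. Of the 16 fits that left out 1 bull each, 10 lost the call of SLC6A13, 10 that of AQP4, 6 that of COL1A2, 5 that of CX3CR1 and 4 that of PDGFRB. The fits without Wagyu replicate 8, La Quinta bull 3 or Montealto bull 1 lost each of these 5 calls, and the calls of COL1A1, DCN and GJA1 were kept in all 16. The part of cell composition in the EEF2K difference was not tested.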

How the data were processed

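RNA from the PFC of 16 bulls was sequenced by the authors on a stranded mRNA kit in paired-end mode, mapped with STAR 2.7.3a to ARS-UCD 1.2 with the Ensembl annotation and quantified with Cufflinks 2.2.1. The deposited values are the FPKM, bounds and coverage of 43984 transcripts per animal and precede Cuffmerge and Cuffdiff. They hold no counts, so count models were not used.

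Breeds were taken from the labels and farms from the study's sample table. Transcript FPKM were added up per gene and divided by median-of-ratios factors with a geometric mean of 1. Genes with a mean of at least 0.1 were tested on log2(scaled FPKM + 0.1) with limma 3.58.1 in R 4.3.3 (variance trend, two-sided, Benjamini-Hochberg adjustment over all tested genes) and called where the adjusted p was 0.05 or less and the log2 difference 0.1 or more in either direction. Exact permutation tests over animals used numpy 2.4.6. The test was also run on simulated data in which genes vary independently of each other. That run does not cover differences between animals that many genes share.

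EEF2K, the gene lists and the alternatives were chosen with earlier results of these data known. Genes named were EEF2K, called or central pathway genes, marker genes, 5 neighbours on either side, and the 5 highest and 5 lowest correlations with EEF2K over the deviations of 16 animals from their breed means, for all genes and for those with a symbol. Symbols were given where an entry of the study's list matched 1 gene in chromosome, start and end, and 48 of 48 entries named by identifier matched that identifier. Of 37063 RefSeq genes, 0 could be matched by identifier. Fragment numbers were taken here from coverage and FPKM alone, without the paper's sequencing statistics per sample. The precision of a level thus rests on the spread between animals. Each animal gave 1 library, and p-values measure the spread between animals of these farms.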

Additional observations from a re-analysis of the deposited data

Results flagged for a closer look

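Of 32 groups of 8 bulls examined, 8 values stood far from the others of their group by Dixon's test of the gap to the nearest bull at the 95% level, where chance flags about 1 group in 20. Wagyu replicate 4 accounts for 4 of them. It had EEF2K at 25.7 FPKM as deposited and a scaling factor of 2.19. Its mitochondrial share was 39.3% of FPKM, and its ratio of coverage to FPKM gave 7.67 M fragments. Its scaled EEF2K value did not stand apart. La Quinta bull 4 had a scaling factor of 1.77, and it also had 0 scaled FPKM of ENSBTAG00000021652, 1 of the neighbours of EEF2K. Montealto bull 2 had 0.381 scaled FPKM of ENSBTAG00000018044, the gene next to EEF2K, far under the other Lidia bulls. Wagyu replicate 3 had 2.53 scaled FPKM of MAPK13, far above the other Wagyu bulls.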

How the results depend on the processing

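The EEF2K difference of -1.31 between the breeds lay between -1.37 and -1.14 under every alternative run, the last with a pseudocount of 1, and leaving out single animals gave -1.37 to -1.25. The difference between the farms ran from -0.0717 to 0.198 when single bulls were left out and was 0.41 on FPKM as deposited, and its p did not pass the threshold under any alternative. Genes called numbered 826, against 0 on FPKM as deposited (1022 at an unadjusted p under 0.05), 3086 with array weights, 282 with La Quinta and 59 with Montealto bulls alone, and 206 without Wagyu replicate 4 and La Quinta bull 4. Leaving out single animals gave 363 to 1426. The count fell to 479 or fewer without Wagyu replicate 4, 5, 6, 7 or 8, La Quinta bull 2, 3 or 4 or Montealto bull 1, and was highest without Wagyu replicate 2. Transcripts called were 368, and 0 on deposited values (1309 with an unadjusted p under 0.05). Of the pathway genes 3 were called, 0 as deposited, 1 with Montealto alone and 2 to 3 without single animals. Of the neighbours 0 were called, 1 with array weights, 1 by the exact rank-sum test and 0 to 1 without single animals. The mitochondrial difference of 5.13 percentage points passed the test at 7.11 without the 2 inflated animals. The neighbours ENSBTAG00000018050 (0.035) and ENSBTAG00000021652 (0.29) turned positive with Montealto alone, and the latter ran from -0.77 to 0.33 without single animals, the highest without La Quinta bull 4.

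On FPKM as deposited, the highest correlations with EEF2K, among all genes and among those with a symbol, ran from 0.82 to 0.98. Of the lowest, that of ENSBTAG00000050598 stayed negative, at -0.35. The other lowest correlations turned positive: 0.77 for ENSBTAG00000004891, 0.85 for ENSBTAG00000009213, 0.40 for ENSBTAG00000007456, 0.90 for ENSBTAG00000031106, 0.86 for CDKN1B, 0.41 for SPHK1, 0.33 for ACKR1, 0.81 for SYNPR and 0.53 for DIPK1B. That of CDKN1B was 0.096 without the 2 bulls of each breed farthest from its EEF2K median, an alternative chosen after seeing the data, as were the mitochondrial values over 14 animals and the ranks within animals. The cause of these changes was not tested. No paired analysis was possible because each bull gave 1 library and no label pairs Lidia with Wagyu bulls. The error of low genes was not separated from the spread between animals. There are no counts, and the Cufflinks bounds were read for EEF2K alone.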
